A study of Arabidopsis thaliana with 8 samples.

Results

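Light-harvesting and photosystem genes of the nucleus were followed in Arabidopsis thaliana, as 41 of the 27213 protein-coding genes. They were chosen by gene ID: 20 antenna genes (14 LHCB and 6 LHCA) and 21 subunit genes (9 PSB and 12 PSA). Chromatin was profiled by ChIP-seq, the sequencing of DNA bound to immunoprecipitated chromatin, in 2 sample types of ecotype Col-0. Leaves came from wild-type plants on MS agar plates, and the other material was a Col-0 suspension cell line on a sucrose medium with 1.1 mg/l of the synthetic auxin 2,4-D, shaken under constant light and subcultured every 7 d. Cultured cells were fixed in 1% paraformaldehyde for 15 min, while leaf fixation and plant age are not stated in the labels. Antibodies were against histone H3, H3K4me3, H3K27me3 and H3K9me2, with 1 library per antibody and sample type, 8 in all, and no replicates.

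In the chloroplast, light is collected by antenna proteins that bind chlorophyll and pass the energy to photosystem II, which splits water, and to photosystem I, which reduces ferredoxin. The core proteins of both photosystems are encoded in the plastid, whereas the antenna proteins, the oxygen-evolving proteins and many small subunits are encoded in the nucleus and imported. In leaves the antenna genes are among the most strongly transcribed and light-induced nuclear genes. H3K4me3 lies over transcribed genes, Polycomb places H3K27me3 over silenced ones, and H3K9me2 is the mark of silent transposable elements.

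Reads on nuclear chromosomes numbered between 1449274 (leaf H3) and 5649143 (culture H3K27me3) per library. The culture libraries were deeper, with 2.15 times the leaf reads for H3, 1.67 times for H3K4me3, 2.61 times for H3K27me3 and 1.80 times for H3K9me2, so counts are compared after scaling to reads per 1000000 nuclear reads (scaled reads). A level is the log2 of mark over H3, both scaled with a pseudocount of 1 read, and a change is the level in culture minus that in leaf. A member was measured with at least 20 mark reads over both libraries and at least 10 reads in each H3 library. A member is said to rise or fall if it changed 2-fold or more with a 95% interval clear of 0, and to be marked at a level of 1 or more. Intervals cover counting error only, not variation between plants, cultures or immunoprecipitations, and there was no test between the sample types. In such bulk samples, fewer cells of a type and less of a mark per cell cannot be told apart.

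H3K4me3 was lower in the culture over much of the antenna and over both PSBO genes of photosystem II. Of the 16 small subunits of the photosystems only 7 had enough H3 reads, and none of these fell over H3, whereas 7 of the 16 fell in H3K4me3 without the division by H3. Over H3, 13 of 29 measured members fell, against 8.55% of the 20473 protein-coding genes measured, and 2 rose, against 12.7%. The median change was -0.87, beside 0.11 over all genes, and 24 of 29 members were below 0. Over all 41 members, including the 12 with too few H3 reads, the median was also -0.87 and 34 were below 0. Without the division by H3 all 41 were measured, 22 fell (15.7% of all genes) and 1 rose (11.1% of all genes), with a median of -1.13 beside -0.14 over all genes. The members that fell by both measures numbered 10.

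**Figure D1:**
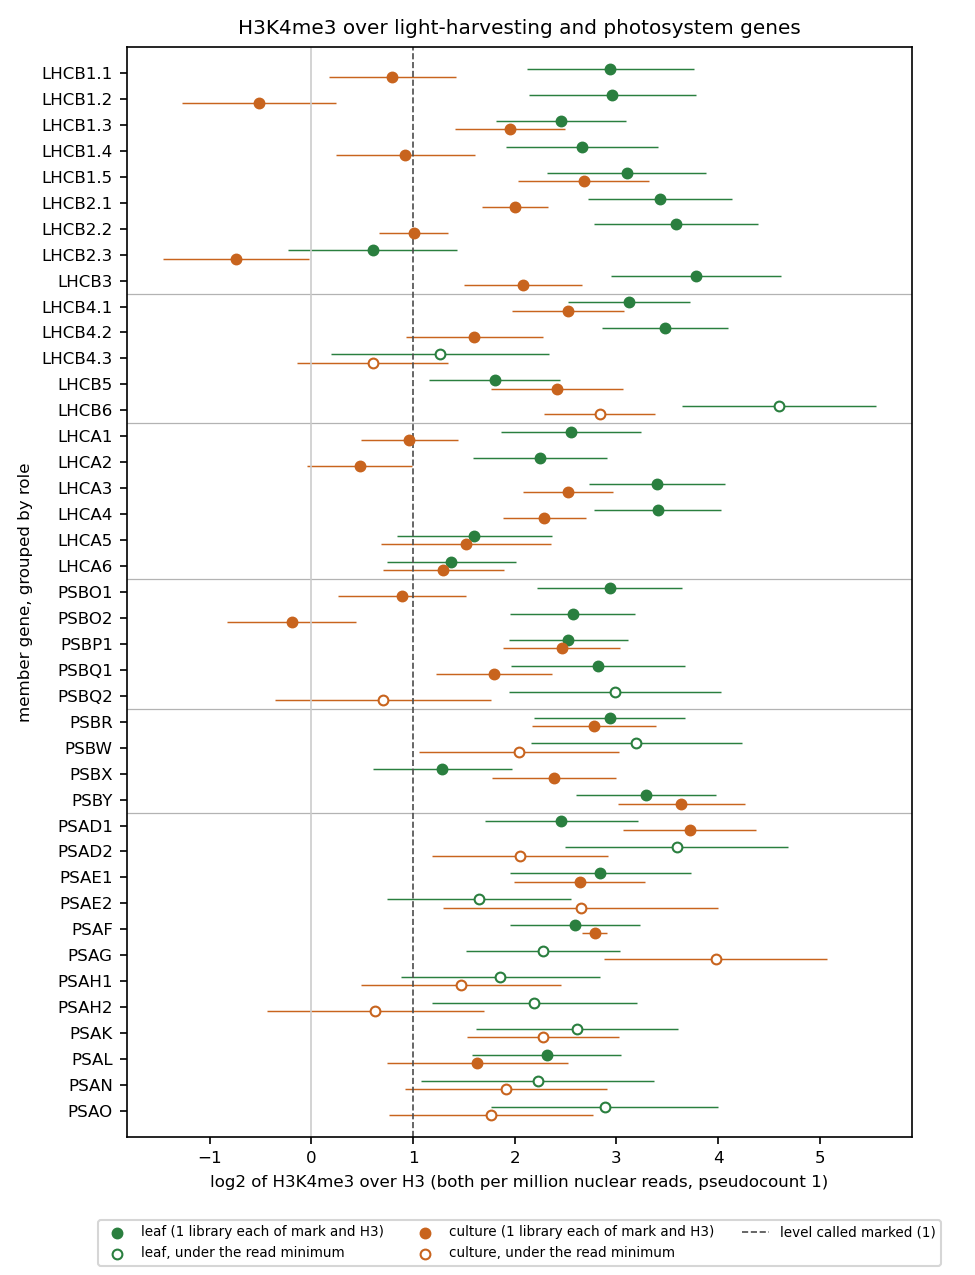
H3K4me3 level (log2 of H3K4me3 over H3, horizontal axis) of the 41 members in leaf (green) and culture (orange), 1 library each, with 95% counting intervals. From the top, gene groups are the LHCII trimer, the minor antenna of photosystem II, the antenna of photosystem I, the oxygen-evolving proteins, small photosystem II subunits and photosystem I subunits. Open points had too few reads. In leaf 40 of 41 points lie right of the dashed line at 1, whereas LHCB1.2 (-0.51), LHCB2.3 (-0.74) and PSBO2 (-0.19) lie below 0 in culture.

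In leaf the members were among the genes richest in H3K4me3. Per length, 37 of 41 were in the top 10% of protein-coding genes by scaled H3K4me3 reads per kb (H3K4me3 alone), with a median density of 58.2 beside 7.47 for all genes. In culture 19 of 41 were in the top 10%, with a median density of 19.8 beside 6.78. Among the 9245 genes of the members' length range (629 to 1747 bp) the counts were 33 in leaf and 15 in culture. Over H3, 28 of 29 measured members were marked in leaf (22.8% of all genes) and 21 in culture (29.2% of all genes). The leaf exception was LHCB2.3, at a level of 0.60.

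Since the members had high leaf levels, narrower backgrounds are also given. Of the other genes marked in leaf, 13.6% fell, beside 12 of the 28 marked members (42.9%). Of other genes in the members' length range, 11.4% fell, and of those both in that range and marked, 14.1%. Of 237 other genes in the length range whose leaf level was between the members' quartiles (2.46 to 3.12), 17.7% fell, with a median change of -0.19, beside 6 of 15 members (40%) with a median of -0.60. These backgrounds were chosen after the data were seen.

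**Figure D2:**
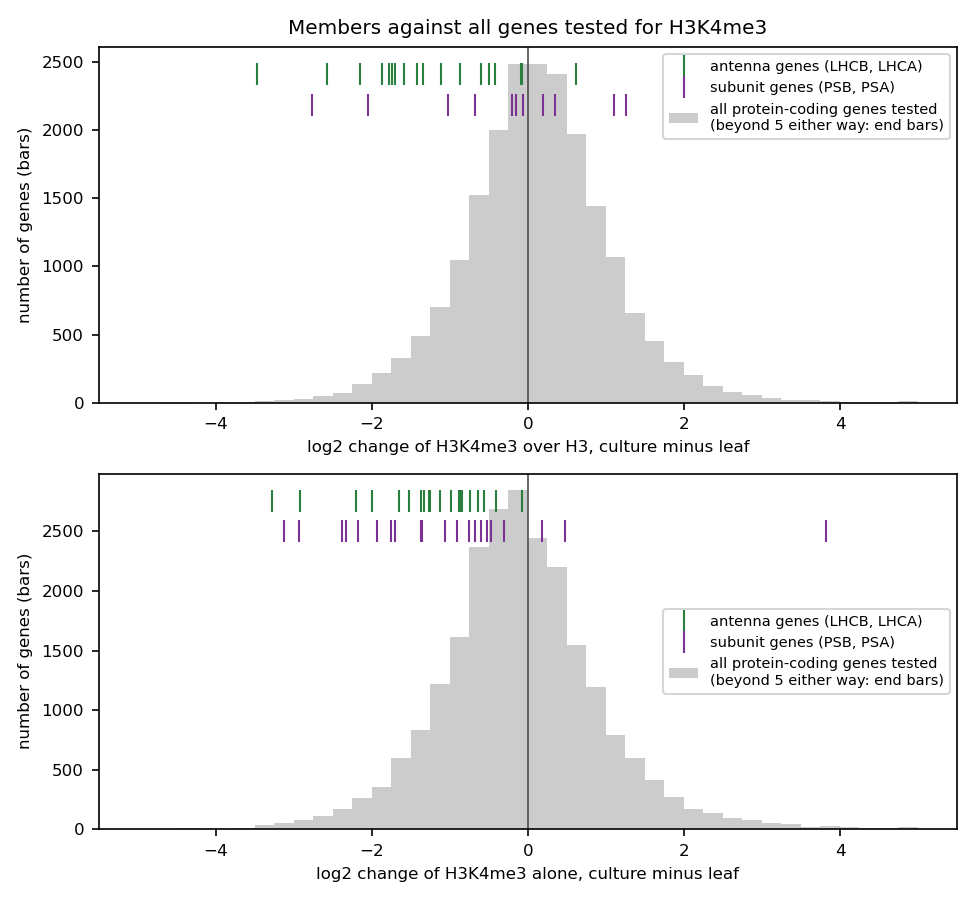
Number of protein-coding genes (bars) by log2 change of H3K4me3 over H3 (upper panel) and of H3K4me3 alone (lower panel), culture minus leaf. Ticks mark antenna genes (green) and subunit genes (purple), 1 tick per measured member. Antenna ticks lie mostly left of 0 in both panels, and the lone tick far to the right below is PSAF (3.82).

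The 9 genes of the LHCII trimer, the main antenna of photosystem II, had a median change of -1.70 over H3, and 7 of 9 fell. In H3K4me3 alone the median was -1.25 and 5 of 9 fell. LHCB1 encodes its most abundant protein, in 5 copies in 2 places. On chromosome 1, LHCB1.2 (AT1G29910, 10472281 to 10473299), LHCB1.1 (AT1G29920, 10474785 to 10475959) and LHCB1.3 (AT1G29930, 10478006 to 10479048) lie within 6.77 kb (TAIR10).
Over LHCB1.2, leaf held 12 H3, 144 H3K4me3, 15 H3K27me3 and 0 H3K9me2 reads, and the culture 31, 24, 22 and 3 in the same order. Its H3K4me3 fell by 3.48 on the log2 scale (95% interval -4.59 to -2.36), an 11.1-fold lower ratio to H3, from a high leaf level to one below 0. It was the largest change among the measured members. Over LHCB1.1, leaf held 12 H3, 142 H3K4me3, 7 H3K27me3 and 5 H3K9me2 reads, and the culture 30, 59, 56 and 4. The change was -2.15 (-3.18 to -1.12). Over LHCB1.3, the H3K4me3 reads numbered 172 in leaf and 146 in culture and the H3 reads 21 and 33, a change of -0.50 (-1.34 to 0.33). Of the 3 neighbouring copies, LHCB1.2 and LHCB1.1 fell and LHCB1.3 was short of 2-fold.

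The LHCB1.3 change exceeded that of LHCB1.2 by 2.97 (1.58 to 4.37) and that of LHCB1.1 by 1.64 (0.32 to 2.97), pairs chosen after their values were seen. Their coding sequences are near-identical, and the placing of reads that match more than 1 copy is not stated, so reads may be split among copies and single-copy values are uncertain. LHCB1.3 lies 73 bp from NRPA2, a subunit gene of RNA polymerase I, whose change was -0.09, and LHCB1.2 lies 69 bp from CARB, a carbamoyl phosphate synthetase gene, at 0.13. On chromosome 2, LHCB1.4 (AT2G34430) fell by 1.74, from 144 H3K4me3 reads in leaf to 52 in culture. LHCB1.5 (AT2G34420) lies beside it, both within 3.24 kb, and with 171 and 156 reads changed by -0.42 (-1.44 to 0.59). Their difference of 1.31 had an interval reaching 0 over H3 (-0.12 to 2.75). LHCB1.5 overlaps the interval of RWA3, a cell wall acetylation gene.

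LHCB2 and LHCB3 encode the other LHCII proteins. Over LHCB2.2 (AT2G05070, chromosome 2, 1799235 to 1800392), leaf held 12 H3, 222 H3K4me3, 10 H3K27me3 and 4 H3K9me2 reads, and the culture 99, 223, 76 and 14. H3K4me3 over H3 fell by 2.58 (-3.45 to -1.70), while H3K4me3 alone changed by -0.74 (-1.01 to -0.47), short of 2-fold. AT2G05060, 132 bp away, changed by -1.67 (-2.91 to -0.44) over H3, though with 8 leaf H3 reads it was not measured. Over LHCB2.2, H3 itself was higher in culture. Its neighbour LHCB2.1 (AT2G05100), with 261 H3K4me3 and 16 H3 reads in leaf and 415 and 92 in culture, fell by 1.42 over H3, but its H3K4me3 alone changed by -0.08 (-0.30 to 0.15). LHCB2.3 (AT3G27690) fell by 1.35 from 36 reads in leaf to 25, and LHCB3 (AT5G54270), with a single copy, by 1.70 from 235 reads to 136. Both also fell in H3K4me3 alone. The LHCB3 interval overlaps that of ATM2, whose change over H3 was -0.97 (-1.58 to -0.37), short of 2-fold.

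Among the 5 minor antenna genes of photosystem II, which link the trimers to the core, 3 were measured over H3 and LHCB4.2 (AT3G08940, chromosome 3, 2717676 to 2718883) fell. The LHCB4.2 interval overlaps that of AT3G08943, which itself fell, by 1.13 (-1.81 to -0.45). Over LHCB4.2, leaf held 21 H3, 350 H3K4me3, 19 H3K27me3 and 0 H3K9me2 reads, and the culture 22, 77, 7 and 0. The change was -1.87 (-2.79 to -0.96), and -2.91 in H3K4me3 alone. Its paralog LHCB4.1 (AT5G01530) held 23, 298, 12 and 0 reads in leaf and 30, 198, 17 and 5 in culture, a change of -0.60 (-1.41 to 0.22), while its H3K4me3 alone fell by 1.33 (-1.59 to -1.07). LHCB5 (AT4G10340), with 114 reads in leaf and 130 in culture, had a change of 0.61 (-0.30 to 1.53) over H3 and of -0.56 in H3K4me3 alone. LHCB6 (AT1G15820) had only 8 leaf H3 reads, and its H3K4me3 alone fell by 1.13, from 311 to 238 reads.

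LHCB4.3 (AT2G40100), also named LHCB8, held fewer H3K4me3 reads in leaf than the other LHCB4 genes. Over LHCB4.3, leaf held 8 H3, 30 H3K4me3, 33 H3K27me3 and 7 H3K9me2 reads, and the culture 22, 38, 10 and 3. H3K4me3 alone over this gene changed by -0.41 (-1.09 to 0.27), and differed by -2.50 (-3.27 to -1.73) for LHCB4.2 minus LHCB4.3 and by -0.92 (-1.65 to -0.19) for LHCB4.1 minus LHCB4.3. Its leaf level over H3 of 1.27 was below those of LHCB4.1 (3.12) and LHCB4.2 (3.48).

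All 6 antenna genes of photosystem I were measured, 3 fell and all 6 were below 0, with a median of -1.0. LHCA1 (AT3G54890) and LHCA4 (AT3G47470), which form one dimer, fell by 1.59 and 1.12, from 159 to 110 and from 333 to 310 reads. LHCA2 (AT3G61470) fell by 1.77, from 142 to 75 reads. Its dimer partner LHCA3 (AT1G61520), with 286 and 307 reads, changed by -0.87 (-1.68 to -0.07), short of 2-fold. The fall of LHCA4 was not called in H3K4me3 alone (-0.85) or with a pseudocount of 5 (-0.97). LHCA5 (AT1G45474) and LHCA6 (AT1G19150), minor antenna proteins that join photosystem I to the NDH complex, both changed by -0.08 over H3. In H3K4me3 alone LHCA5 fell by 1.37 (-1.89 to -0.84), as its H3 fell by 1.29, and LHCA6 changed by -0.87. Over LHCA6, leaf held 24 H3, 92 H3K4me3, 28 H3K27me3 and 6 H3K9me2 reads, and the culture 30, 84, 43 and 8. Both started from lower leaf levels, 1.60 and 1.38, than the other LHCA genes (2.25 to 3.41).

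The PSBO, PSBP and PSBQ proteins sit on the lumenal side of photosystem II and stabilize the manganese cluster that oxidizes water. Of these 5 genes 4 were measured over H3, with a median of -1.53, and both PSBO genes fell. In H3K4me3 alone 4 of 5 fell, with a median of -2.33. Over PSBO2 (AT3G50820, chromosome 3, 18890877 to 18892426), leaf held 23 H3, 203 H3K4me3, 18 H3K27me3 and 4 H3K9me2 reads, and the culture 39, 38, 23 and 1. The change was -2.76 (-3.65 to -1.88). Over PSBO1 (AT5G66570, chromosome 5, 26568654 to 26570278), leaf held 16 H3, 185 H3K4me3, 19 H3K27me3 and 0 H3K9me2 reads, and the culture 29, 61, 16 and 4. The change was -2.04 (-3.00 to -1.09), and both copies also fell in H3K4me3 alone, with changes of -2.33 for PSBO1 and -3.13 for PSBO2.

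PSBP1 (AT1G06680) was the measured member of least change over H3. Over PSBP1, leaf held 25 H3, 214 H3K4me3, 14 H3K27me3 and 3 H3K9me2 reads, and the culture 27, 171, 21 and 5, a change of -0.07 (-0.89 to 0.75). In H3K4me3 alone it fell by 1.07, as scaled H3 was lower too (-1.0). Over PSBQ1 (AT4G21280), leaf held 11 H3, 120 H3K4me3, 16 H3K27me3 and 6 H3K9me2 reads, and the culture 30, 119, 41 and 4, a change of -1.02 with an interval that touched 0 (-2.05 to 0.01). Over PSBQ2 (AT4G05180), too low in H3 to be measured against it, leaf held 7 H3, 90 H3K4me3, 10 H3K27me3 and 0 H3K9me2 reads, and the culture 10, 19, 3 and 3. H3K4me3 alone fell by 2.93 over PSBQ2 and changed by -0.76 over PSBQ1.

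Of the 3 small photosystem II subunits measured over H3, none fell. PSBX (AT2G06520), a small membrane subunit, was 1 of the 2 members that rose. Over PSBX, leaf held 21 H3, 76 H3K4me3, 0 H3K27me3 and 0 H3K9me2 reads, and the culture 24, 145, 12 and 4. The change was 1.10 (0.18 to 2.02), but H3K4me3 alone changed by 0.18 (-0.22 to 0.58), as scaled H3 was lower in culture. Relative to the median gene its change was 0.99, short of 2-fold. Its interval is the shortest of the members, 629 bp, and lies 43 bp from RPA1A, a replication protein gene, whose change was -0.33. PSBR (AT1G79040), with 174 H3K4me3 reads in leaf and 183 in culture, changed by -0.15, and PSBY (AT1G67740), with 252 and 305, by 0.35. Neither was called in H3K4me3 alone. PSBW (AT2G30570), with 7 leaf H3 reads, fell by 1.93 in H3K4me3 alone, from 104 to 45 reads.

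Of the 12 photosystem I subunit genes, only PSAD1, PSAE1, PSAF and PSAL had enough H3 reads. PSAD and PSAE form the stromal docking site for ferredoxin, and each has 2 genes. Over PSAD1 (AT4G02770, chromosome 4, 1229112 to 1229945), leaf held 15 H3, 125 H3K4me3, 16 H3K27me3 and 0 H3K9me2 reads, and the culture 19, 293, 20 and 10. It rose by 1.26 over H3 (0.27 to 2.26), and in H3K4me3 alone changed by 0.48 (0.18 to 0.78), short of 2-fold. Over PSAD2 (AT1G03130), leaf held 6 H3, 120 H3K4me3, 5 H3K27me3 and 0 H3K9me2 reads, and the culture 12, 59, 9 and 5. H3K4me3 alone fell by 1.76 there. From near-equal leaf reads the PSAD copies thus parted, with a difference in change of 2.23 (1.70 to 2.77) in H3K4me3 alone and of 2.81 (1.09 to 4.52) over H3.

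RAB28, 167 bp from PSAD2, changed by -1.65 over H3, and the gene 170 bp from PSAD1, AT4G02760, by 0.19. The part of neighbouring genes in the values of their members was not tested.

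Over PSAE1 (AT4G28750), leaf held 10 H3, 112 H3K4me3, 17 H3K27me3 and 0 H3K9me2 reads, and the culture 21, 152, 27 and 14, a change of -0.20 over H3. Over PSAE2 (AT2G20260), leaf held 11 H3, 53 H3K4me3, 9 H3K27me3 and 0 H3K9me2 reads, and the culture 4, 34, 6 and 0. PSAE2 fell by 1.37 in H3K4me3 alone, and PSAE1 changed by -0.31. Scaled H3 over PSAE2 was lower too (-2.37), so its ratio to H3 changed by 1.00, with too few H3 reads to be measured. PSAH forms a docking site for the mobile antenna during state transitions. Over PSAH1 (AT3G16140), leaf held 9 H3, 51 H3K4me3, 4 H3K27me3 and 0 H3K9me2 reads, and the culture 10, 33, 7 and 1. Over PSAH2 (AT1G52230), leaf held 8 H3, 58 H3K4me3, 8 H3K27me3 and 0 H3K9me2 reads, and the culture 10, 18, 4 and 0. Both fell in H3K4me3 alone, by 1.36 and 2.38.

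In H3K4me3 alone, the copies of all 7 paralog pairs compared (PSBO, PSBQ, PSAD, PSAE, PSAH, and LHCB4.1 and LHCB4.2 each with LHCB4.3) had changes that differed with an interval excluding 0. Over H3 this held for 1 of the 7, PSAD. The difference of PSAE1 minus PSAE2 changed sign, from 1.06 in H3K4me3 alone to -1.20 (-3.16 to 0.76) over H3. That of LHCB4.1 minus LHCB4.3 went from -0.92 to 0.07 (-1.47 to 1.60). PSBO was the only pair with enough H3 reads in both copies, and its difference over H3 was 0.72 (-0.58 to 2.02).

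The remaining subunits are membrane or peripheral proteins of photosystem I. PSAG (AT1G55670), PSAK (AT1G30380) and PSAN (AT5G64040) changed by -0.60, -0.52 and -0.91 in H3K4me3 alone, short of 2-fold. PSAL (AT4G12800), which lies next to PSAH in the complex, fell by 2.17 from 120 to 44 reads, and PSAO (AT1G08380) by 1.71 from 73 to 37 reads. Over H3 the PSAL change was -0.68 (-1.83 to 0.47), since H3 was lower there too. PSAG, with 15 leaf and 6 culture H3 reads, had the highest ratio among unmeasured members, a change of 1.70. In H3K4me3 alone, 11 of 21 subunit genes fell, beside 11 of 20 antenna genes. Over H3, 2 of 11 measured subunit genes fell, beside 11 of 18 measured antenna genes, and this difference was not tested.

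**Figure D3:**
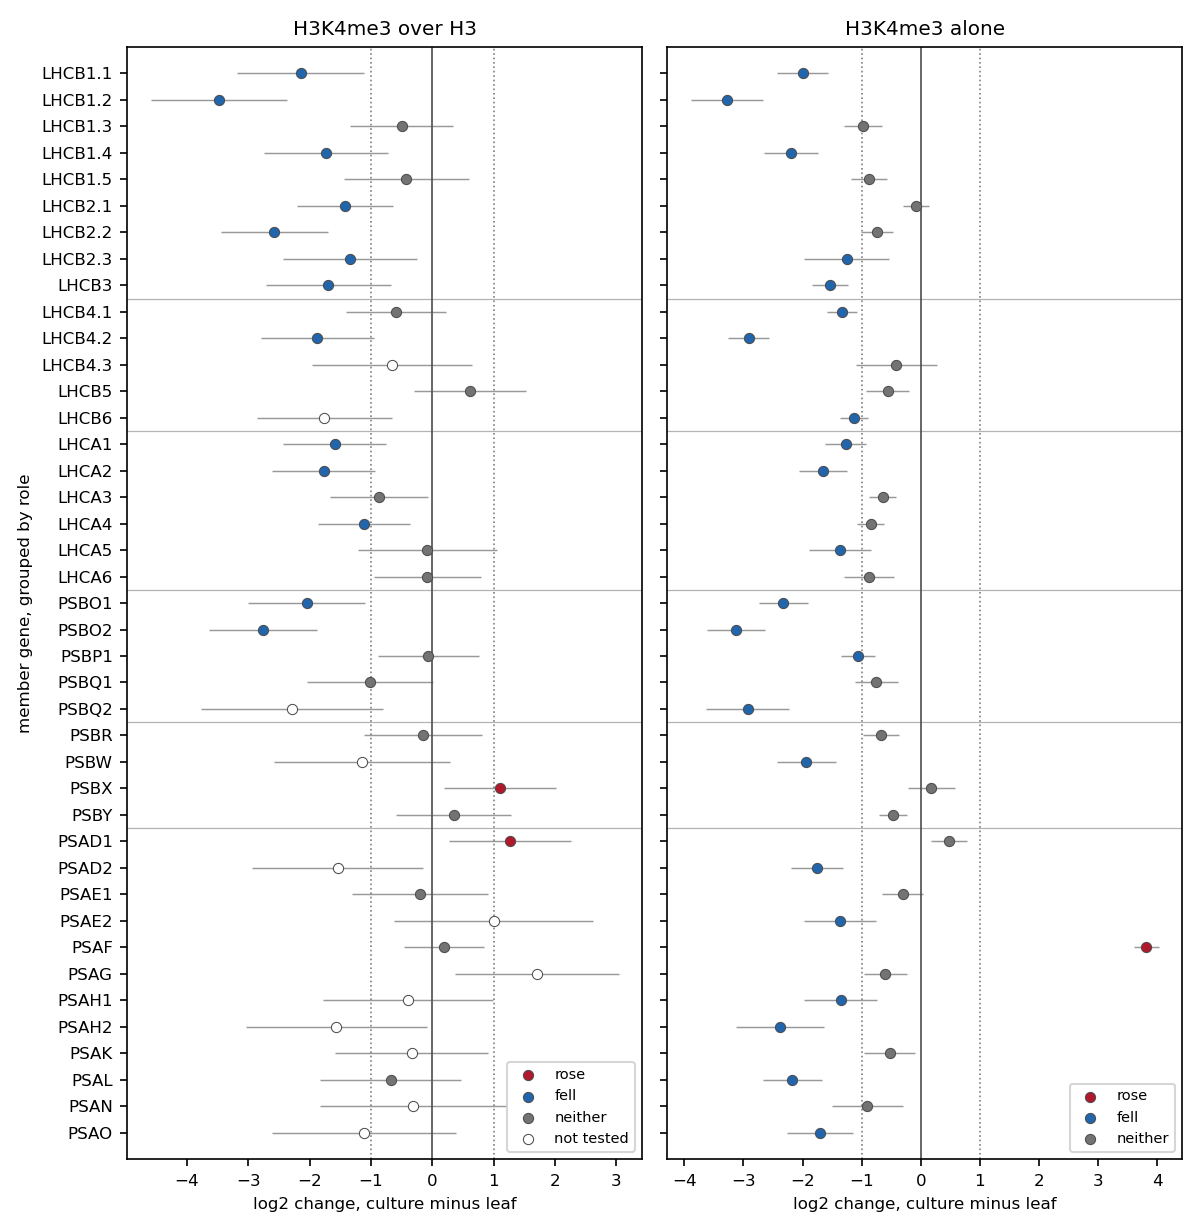
Log2 change of H3K4me3 (culture minus leaf, horizontal axes) of the 41 members over H3 (left) and in H3K4me3 alone (right), with 95% counting intervals and dotted lines at 2-fold. Blue points fell, red points rose, grey points did neither and white points had too few H3 reads. Antenna genes and both PSBO genes are left of 0 in both panels, apart from LHCB5 over H3, while PSAF is far to the right in H3K4me3 alone (3.82) and near 0 over H3 (0.19).

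Many members lie close to other genes in a compact genome, and the files count reads over whole genes. Of the 18 members with no gene within 200 bp, 13 were measured, 7 fell and none rose, with a median of -1.42. Of the other 23, 16 were measured, 6 fell and 2 rose, with a median of -0.46. In H3K4me3 alone 9 of 18 and 13 of 23 fell. The intergenic intervals touching the members held few H3K4me3 reads, 477 in leaf beside 6268 over the genes. The median flank change over H3 was 0.10 for the 13 members whose flanks were measured. Of these flanks 4 rose, those of PSBO1 (2.01), LHCA2 (2.06), PSAH1 (1.55) and PSAE1 (1.13), and none fell. Scaled H3 itself fell over the flanks of PSBO1 (-1.67), PSAH1 (-1.80) and PSAE1 (-1.10), and changed by -0.67 at LHCA2. Their H3K4me3 reads went from 15 to 33, 11 to 16, 16 to 28 and 4 to 21 in that order. Of 20 flanks measured in H3, 6 fell and 1 rose. In H3K27me3 over H3, 8 flanks were measured, 3 rose and none fell. Those that rose were at LHCB1.1 (1.45, from 12 to 68 reads), LHCB1.2 (1.58, from 9 to 55) and PSAE1 (2.22, from 5 to 33). Each reached the read minimum only through its culture reads, so these rises are no separate result. Shares over all intergenic intervals were not computed, so whether such flank counts are unusual cannot be told.

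PSAF (AT1G31330), a photosystem I subunit that takes part in plastocyanin docking, stood apart in all 4 antibodies. Over PSAF, leaf held 21 H3, 189 H3K4me3, 15 H3K27me3 and 2 H3K9me2 reads, and the culture 582, 4484, 370 and 90. Scaled H3 was 12.3-fold higher in culture, a log2 difference of 3.62 (3.01 to 4.24), rank 47 of 23528 genes. The 3 marks were higher too, and the changes over H3 were small, 0.19 for H3K4me3, -0.47 for H3K27me3 and 0.45 for H3K9me2.

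Genes next to PSAF shared this excess. In a run of 7 consecutive protein-coding genes (AT1G31310 to AT1G31350, chromosome 1, 11198354 to 11222786, 24.4 kb), H3 was higher in culture by 2.31 to 3.81. The same genes were higher by 1.76 to 5.14 in H3K4me3 alone and by 2.34 to 3.69 in H3K27me3 alone, and differed by -0.85 to 4.66 in H3K9me2 alone. The genes just outside the run were higher by 1.56 and 1.32 in H3, and the median over 26 genes within 50 kb was 1.54. The excess was wider than this run, since further genes on its left, AGO2 (2.17), AGO3 (2.11) and ZIP10 (2.68) among them, again had H3 higher by over 2 on the log2 scale. PSAF alone weighs on the summed reads. Members took 0.302% of nuclear H3K4me3 reads in leaf and 0.269% in culture, and without PSAF 0.293% and 0.140%.

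**Figure D4:**
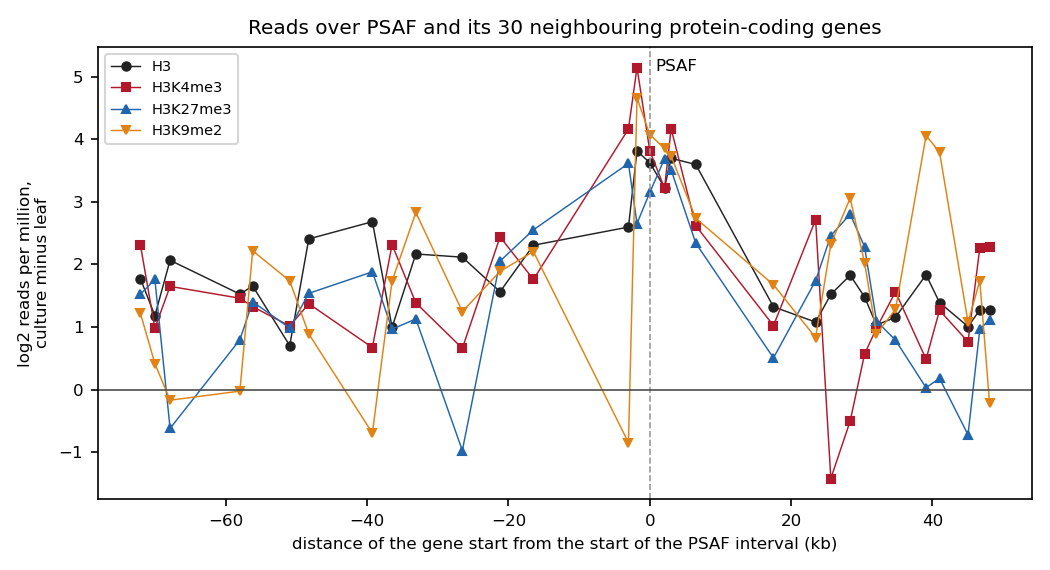
Log2 difference in scaled reads (culture minus leaf, vertical axis) over PSAF and neighbouring protein-coding genes, by distance of the gene start from that of PSAF in kb, for H3 and the 3 marks without division by H3. H3 is above 0 over every gene shown and highest around PSAF, between 2.31 and 3.81 over the run of 7 genes.

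H3 over most other members neither rose nor fell. Of 33 members with enough reads, 3 had H3 that rose (4.96% of all genes) and 5 that fell (10.2% of all genes), with a median of -0.29 beside -0.24 over all genes. Besides PSAF, the H3 of LHCB2.2 rose by 1.84 and that of LHCB2.1 by 1.35, and genes within 50 kb of them had H3 medians of 2.15 and 1.73 (5 and 8 genes). H3 fell over LHCB4.2, LHCB5, LHCA5, PSAG and PSAL. The part of this regional excess in the values of PSAF and the LHCB2 genes was not tested.

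H3K27me3 over these genes was near that of the median gene in both sample types. By scaled reads per kb, their median percentile among protein-coding genes was 48.0 in leaf and 53.0 in culture. None of 27 measured members was marked in leaf (19.4% of all genes) or in culture (11.9% of all genes). Over H3, 3 fell, LHCB4.2 by 1.67, PSBO1 by 1.34 and LHCA1 by 1.31, against 26.7% of all 19845 genes measured, and 1 rose, PSAL by 2.04 (0.38 to 3.71), against 2.76%. The median change was -0.38 beside -0.57 over all genes. Relative to the median gene, the members' median turned to 0.19, with none fallen and 3 risen (11.1%), beside 11.8% fallen and 8.61% risen over all genes. The 3 were PSAL, LHCB5 and LHCB1.1, with 5, 4 and 7 leaf reads. Each reached the read minimum only through its culture reads, so a rise of any of them, by any measure, is no separate result.

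Single values of H3K27me3 rest on few reads. Over PSAL, leaf held 16 H3, 120 H3K4me3, 5 H3K27me3 and 0 H3K9me2 reads, and the culture 12, 44, 22 and 0, so that the rise in the ratio came with fewer H3 reads and H3K27me3 alone changed by 0.55 (-0.74 to 1.85). Over LHCB5, leaf held 22 H3, 114 H3K4me3, 4 H3K27me3 and 0 H3K9me2 reads, and the culture 21, 130, 17 and 2, a change of 1.63 (-0.03 to 3.29). Over LHCA1, leaf held 18 H3, 159 H3K4me3, 15 H3K27me3 and 6 H3K9me2 reads, and the culture 50, 110, 20 and 3. The change of LHCB1.1 was 1.3 (-0.12 to 2.72), from 7 to 56 reads, and in H3K27me3 alone it rose by 1.45, where 4.65% of all genes rose and 40.1% fell. Over LHCA4, leaf held 21 H3, 333 H3K4me3, 11 H3K27me3 and 8 H3K9me2 reads, and the culture 56, 310, 38 and 6, a change of 0.05, and LHCA6 was at 0.01.

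LHCB4.3 was the one member with a leaf level of H3K27me3 above the threshold, 1.34, though with 8 leaf H3 reads it was not measured over H3. Its H3K27me3 alone fell by 3.01 (-4.00 to -2.03), from 33 to 10 reads, deeper than that of LHCB4.1 by 2.1 (0.68 to 3.52). LHCB4.2 also fell in H3K27me3 alone, by 2.71, and differed from LHCB4.3 by 0.31 (-1.23 to 1.84). The interval of the LHCB4.3 leaf level reached below the threshold of 1 for both H3K27me3 (0.28 to 2.40) and H3K4me3 (0.20 to 2.34).

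**Figure D5:**
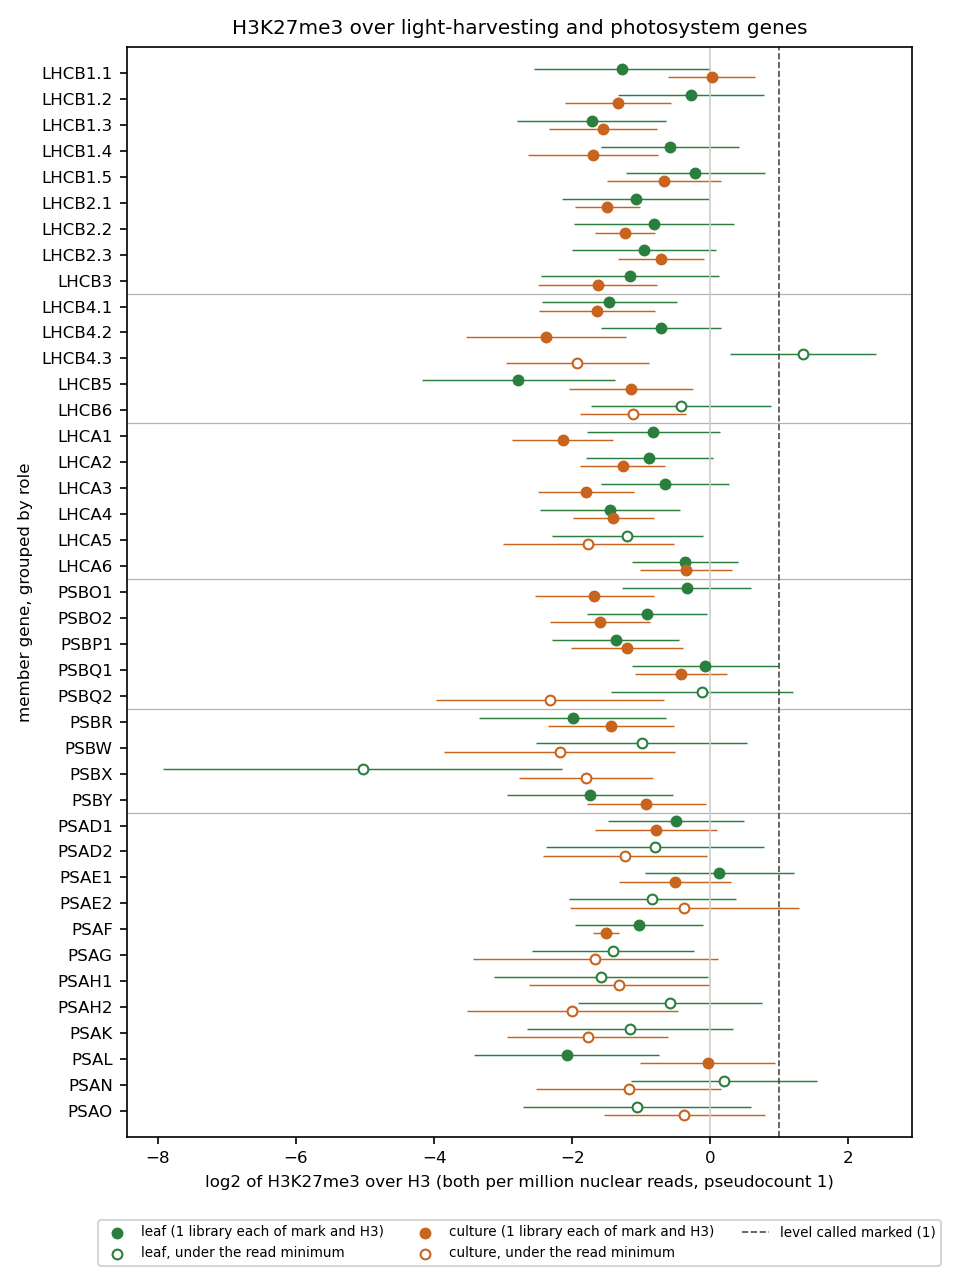
H3K27me3 level (log2 of H3K27me3 over H3, horizontal axis) of the 41 members in leaf (green) and culture (orange), 1 library each, with 95% counting intervals, grouped by role as in the plot of H3K4me3 levels. Open points had too few reads. Apart from LHCB4.3 in leaf (1.34), every point lies left of the dashed line at 1.

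H3K9me2 was near the floor. Only LHCB2.1 and PSAF had enough reads, with changes of 0.54 and 0.45 over H3, and neither rose nor fell, where 21.6% of 6147 genes measured rose and 10.7% fell. Over LHCB2.1, leaf held 16 H3, 261 H3K4me3, 11 H3K27me3 and 2 H3K9me2 reads, and the culture 92, 415, 59 and 19. In the other members H3K9me2 reads ranged from 0 to 11 in leaf and from 0 to 14 in culture.

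A few other genes of photosynthetic electron transport were called over H3, in both directions. The list of 22 (the cytochrome complex, plastocyanin, ferredoxin, ATP synthase, cyclic flow and photoprotection, with the photosystem II and antenna genes PSB27, PSB28, PSBTN, PSBP2 and LHCB7, which are no members) had 15 measured genes, with a median of -0.11. Of these 15, 2 fell (13.3%, beside 8.55% of all genes) and 3 rose (20%, beside 12.7% of all genes), shares that rest on few genes. PETE1, a plastocyanin gene, fell by 2.28, and PGRL1B, of cyclic electron flow, by 1.46. LHCB7, a rare antenna relative, rose by 1.16, FNR2, a ferredoxin reductase gene, by 1.24, and ELIP2, a stress-induced antenna relative, by 2.42. None of the 3 that rose did so in H3K4me3 alone, where 6 of 22 fell (15.7% of all genes) and the median was -0.68. The difference between this list and the members was not tested.

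Markers of cell types differed between the samples alongside these values. Of 5 mesophyll markers 3 were measured, and RCA, the rubisco activase gene, fell by 2.34, where 8.55% of all genes fell. CA1 (-0.71) and RBCS3B (-0.52) did not fall over H3. In H3K4me3 alone all 5 fell (15.7% of all genes). Of 4 dividing cell markers CYCA1;1, AUR1 and KN rose (12.7% of all genes), while CYCB1;1 changed by -0.38. Of 5 callus and root markers 4 were measured, and WOX11, PLT3 and LBD16 rose. LBD29 changed by 0.55, short of 2-fold, and WOX5 had too few reads. Neither of 2 measured guard cell markers rose or fell. Plastid reads made up 12.2% of the leaf H3 library (95% Wilson interval 12.1 to 12.2) and 0.0331% of the culture H3 library. They made up 2.49% and 0.422% for H3K4me3 and 0.757% and 0.169% for H3K27me3, but 0.0686% and 0.131% for H3K9me2, higher in culture. Within leaf the share thus ranged from 0.0686% to 12.2% between antibodies. It was highest in the H3 library, by which all leaf levels over H3 are divided. Plastid reads are outside the nuclear totals used for scaling. The part of cell makeup, of plastid number and of such differences between libraries in the H3K4me3 differences was not tested.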

How the data were processed

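ChIP-seq counts were used as the authors deposited them, as whole numbers of reads in each of 8 files, 1 per library, over 109972 intervals that tile genes, transposable elements and intergenic DNA. The submitters' processing notes name Bowtie2, bedtools and the TAIR10 genome, without versions. Their settings and the treatment of duplicates and multiply mapping reads are not stated in the labels. Intervals that overlap can count a read more than once.

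All 41 gene IDs were found in the files, and RefSeq symbols were looked up for each. With a pseudocount of 1, counts were scaled to 1000000 nuclear reads. Changes (culture minus leaf, log2 mark over H3) were computed for all 27213 protein-coding genes, with 95% intervals from the Poisson error of the 4 counts involved. The filter, the 2-fold rule and the level called marked are given with the results. With 1 library per group there was no test between sample types and no replicate check. Reads without molecular identifiers are not independent molecules, so intervals cover counting error only. As the files give neither strand nor position inside genes, flanks on both sides of a gene were pooled and H3K4me3 was taken over whole genes. No sequence was available for these genes, and none is shown.

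All 41 members are named. Read counts of all libraries are given, per mark, for the 6 measured members of largest change and the 2 of smallest, for paralog pairs and for members called against the common direction. The members, gene lists and rules were chosen with earlier results of these data known. Alternatives were H3K4me3 alone, a pseudocount of 5, no filter, centring on the median gene, totals with organelles, totals without H3-dense intervals (leaf H3 per kb over 20 times the gene median, 2070 intervals), a 3-fold rule, and subsets of the members. Calls were tested on simulated counts with Poisson error only, the error that the intervals assume, so variation between libraries was not covered. Python 3.11.15, numpy 2.4.6, pandas 2.3.3, statsmodels 0.14.6 and matplotlib 3.10.9 were used.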

Additional observations from a re-analysis of the deposited data

How the results depend on the processing

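No paired analysis was possible because there is 1 library per antibody and sample type, which also leaves no replicate to leave out. With 6 to 25 leaf H3 reads over each member, intervals of changes over H3 were wide, for example -0.89 to 0.75 for PSBP1, and smaller changes were not detectable at this depth. Dividing by H3 mattered most. In the mark alone, 22 members fell and 1 rose in H3K4me3 (median -1.13). In H3K27me3 alone 6 of 29 fell (40.1% of all genes) and 3 rose (4.65% of all genes). In H3K9me2 alone both measured members, LHCB2.1 and PSAF, rose (median 2.98). Each had 2 leaf reads and reached the read minimum only through its culture reads, so a rise there is no separate result. Again in the mark alone, 7 paralog pairs differed in H3K4me3 and 2 in H3K27me3. In H3K4me3 alone 6 of 22 electron transport genes fell (15.7% of all genes). The H3K27me3 of LHCB2.2 and PSAF turned to rises of 1.42 and 3.15 in the mark alone, both with higher H3 in culture. With 10 and 15 leaf reads, they too reached the read minimum only through culture reads, so these rises are no separate result. Of the 29 measured H3K4me3 changes, 19 kept their direction and call in the mark alone, 27 after centring, 28 with a pseudocount of 5 (LHCA4 was lost, at -0.97) and 26 with organelle reads in the totals.

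After centring on the median gene, 14 members fell and 1 rose in H3K4me3. In H3K27me3 none fell and 3 rose (0 and 3, median 0.19), and H3 had a median of -0.043 with 3 fallen. With organelle reads in the totals, 1 member rose in H3K4me3, and H3 had a median of -0.078 with 3 fallen. Under the 3-fold rule 10 fell and 0 rose in H3K4me3 (LHCB2.1, LHCB2.3 and LHCA4 were lost among the falls) and 1 fell in H3K27me3. Without H3-dense intervals in the totals 2 rose in H3K27me3. With no filter, H3K27me3 had 5 fallen, 2 risen and 1 member marked in leaf, and H3K9me2 had 3 fallen and 2 risen, from counts near 0.

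Subsets hold fewer members, which by itself lowers counts. Without members within 200 bp of a gene, 7 of 13 fell and 0 rose in H3K4me3 (median -1.42), 0 rose in H3K27me3, and H3 had 2 fallen and a median of -0.035. Without LHCB1 and LHCB2 genes, 7 of 21 fell in H3K4me3 (median -0.60) and 1 rose in H3. Without PSAF, LHCB2.1 and LHCB2.2, a choice made after the data were seen, 0 rose in H3 and no member was left for H3K9me2. The causes of these differences were not tested.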
